A study of Mus musculus with 8 samples.

Results

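The genes followed here in bone marrow-derived mast cells (BMMCs), with or without targeting of Mettl3, were 10 imprinted genes: H19, Igf2, Airn, Igf2r, Kcnq1ot1, Cdkn1c, Phlda2, Meg3, Grb10 and Peg3. They were 10 of the 56748 gene identifiers in the count tables and lie in 6 imprinted domains on 4 chromosomes. They were chosen by name from their Mettl3-RNP to Pulsed differences in these same libraries, H19 for its higher and Airn for its lower level, together with partners in their clusters and other well-known imprinted genes. The differences between the groups are therefore given for these 10 genes as a description. No p-value is given for them in that comparison, and how many passed the limits used for all genes is counted once, with nothing read from it. Of the 10 genes, 7 passed the filter on low counts and were among the 14942 genes fitted, while Cdkn1c, Phlda2 and Peg3 were too low to be fitted.

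The 8 libraries held poly-A RNA of resting BMMCs, which were grown from whole bone marrow of C57BL/6 mice, males and females 6 to 8 weeks old, by at least 4 weeks of culture in IL-3. In the 4 Mettl3-RNP libraries, labelled with the genotype Mettl3 KO, the cells had received Cas9 ribonucleoproteins (RNPs), complexes of the nuclease and its guide RNA, against the methyltransferase gene Mettl3. In the 4 Pulsed libraries, the wild-type controls, the cells had gone through the electric pulse without Cas9 RNPs. The series text names 4 mice and both groups carry the numbers 1 to 4, so libraries with one number were compared as a pair. The RNP-treated cells were a bulk population, not a clone, and cells that kept Mettl3 remained among them. An inbred strain carries no differences between the parental chromosomes, so these counts cannot say from which parental copy a transcript came.

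In an imprinted gene, the copy inherited from one parent is active and the other is silent. DNA methylation laid down in the germ line marks a control region on one parental copy. Imprinted genes sit in clusters under such regions, and many clusters hold a long non-coding RNA (lncRNA) expressed from one parental copy. H19 and Igf2 compete for shared enhancers under one control region, whereas Airn and Kcnq1ot1 are lncRNAs that silence neighbouring genes in cis. Mettl3 writes N6-methyladenosine (m6A) on nascent RNA, most often inside a short motif of which GGACT is one of the commonest forms.

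The targeted gene was checked first. Mettl3 (chr14:52531551-52542608, minus strand, GRCm39) had 12.3, 9.18, 4.88 and 9.21 CPM in Mettl3-RNP 1 to 4 and 25.9, 24.5, 11.2 and 26.5 CPM in Pulsed 1 to 4. In 4 of 4 pairs the Mettl3-RNP library was the lower (log2 fold change -1.30, SE 0.109, adjusted p = 0.00543). CPM are counts per 1000000 of the library size after scaling by the trimmed mean of M-values (TMM), and an SE is that of the fitted log2 fold change. Per-exon counts were not analysed here, so edited and unedited Mettl3 transcripts could not be separated. On the other strand, exons of Tox4 share 2308 exon bases of Mettl3. The study lists 3 Mettl3 guides and its methods do not say which were used for these libraries. They are printed because they define the manipulation, with the protospacer in lower case and the adjacent motif (PAM) in capitals.
crRNA_Mettl3_1: cacgggactatcactacggaAGG
crRNA_Mettl3_2-HDR: ggacacgtggagctctatccAGG
crRNA_Mettl3_3-HDR: gatggggtaaccaacaatcgAGG
In GRCm39 the protospacer of guide 1 lies at chr14:52537803-52537822 on the plus strand in coding exon 2. That of guide 2 lies at chr14:52542420-52542439 on the minus strand in coding exon 1, and that of guide 3 at chr14:52542216-52542235 on the plus strand, outside the exons of the canonical transcript.

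The libraries held 32643260 to 45324826 assigned counts. The mast cell list (9 genes, among them Kit, Fcer1a, Cpa3 and Cma1) summed to 38256 to 54000 CPM in Mettl3-RNP and 43248 to 60950 CPM in Pulsed libraries. The sum was the lower in Mettl3-RNP in 4 of 4 pairs with overlapping ranges. Its largest part was Cpa3, with 16657, 25514, 22784 and 28133 CPM in Mettl3-RNP 1 to 4 and 20416, 35744, 28382 and 37159 CPM in Pulsed 1 to 4. Kit, Fcer1a, Ms4a2, Gata2, Cma1 and Mcpt4 were instead higher in Mettl3-RNP in most pairs. Tpsb2 was split and Hdc was lower in most pairs. The stromal list summed to 3.08 to 6.38 CPM in Mettl3-RNP and 3.86 to 4.16 CPM in Pulsed libraries, and the neutrophil genes S100a8, S100a9 and Elane were at 0 in all 8. The basophil list summed to 510 to 823 CPM in Mettl3-RNP and 500 to 627 CPM in Pulsed libraries, nearly all of it Cd200r3, while its proteases Mcpt8 and Prss34 stayed at or below 4.03 CPM. The megakaryocyte list summed to 1753 to 2122 CPM and 1598 to 1862 CPM, nearly all of it the integrin gene Itga2b, while Pf4 and Gp9 stayed at or below 0.937 CPM. The sums of both lists were the higher in Mettl3-RNP in 4 of 4 pairs, the direction of Cd200r3 and Itga2b. Mcpt8 and Prss34 were the lower in Mettl3-RNP in 4 of 4 pairs, Gp9 was lower in most pairs and Pf4 was split. The progenitor list summed to 12.5 to 28.0 CPM and 15.4 to 20.6 CPM.

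H19 was the imprinted lncRNA that stood higher with Mettl3 targeted, in each of the 4 pairs. H19 (ENSMUSG00000000031) is an abundant spliced lncRNA of fetal tissues that also serves as the precursor of miR-675, and lies at chr7:142129262-142133957 on the minus strand. It had 9.29, 10.9, 22.4 and 39.7 CPM in Mettl3-RNP 1 to 4 and 4.67, 4.26, 8.33 and 16.5 CPM in Pulsed 1 to 4. The ranges of the groups overlapped, because replicate 4 was the highest in both groups and Pulsed 4 exceeded Mettl3-RNP 1 and 2. Within pairs the picture was even: the ratio of Mettl3-RNP to Pulsed was 1.99, 2.55, 2.69 and 2.41 in pairs 1 to 4. The means were 20.6 ± 14.05 and 8.43 ± 5.66 CPM (SD, n = 4 per group), and the fitted log2 fold change was 1.27 (SE 0.107), or 2.41-fold. In bulk RNA, more cells that express H19 and more H19 RNA per cell cannot be told apart. Over the transcript, 141 bases of H19 exon are shared with exons of Gm56420 and Gm56421 on the other strand, and whether counting used strand is not given in the sources used here.

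The difference between replicate numbers was a second measure, one that did not enter the choice of the genes. H19 differed between the numbers within groups (adjusted p = 0.00013), with Pulsed 4 at 16.5 CPM against 4.26 CPM in Pulsed 2, and so did Kcnq1ot1 (adjusted p = 0.00416). Of the 7 fitted genes, 2 passed this test, against 53.9% of all 14942 genes. Airn (adjusted p = 0.0712), Igf2r (adjusted p = 0.0747), Igf2 (adjusted p = 0.198), Grb10 (adjusted p = 0.338) and Meg3 (adjusted p = 0.643) did not pass.

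**Figure D1:**
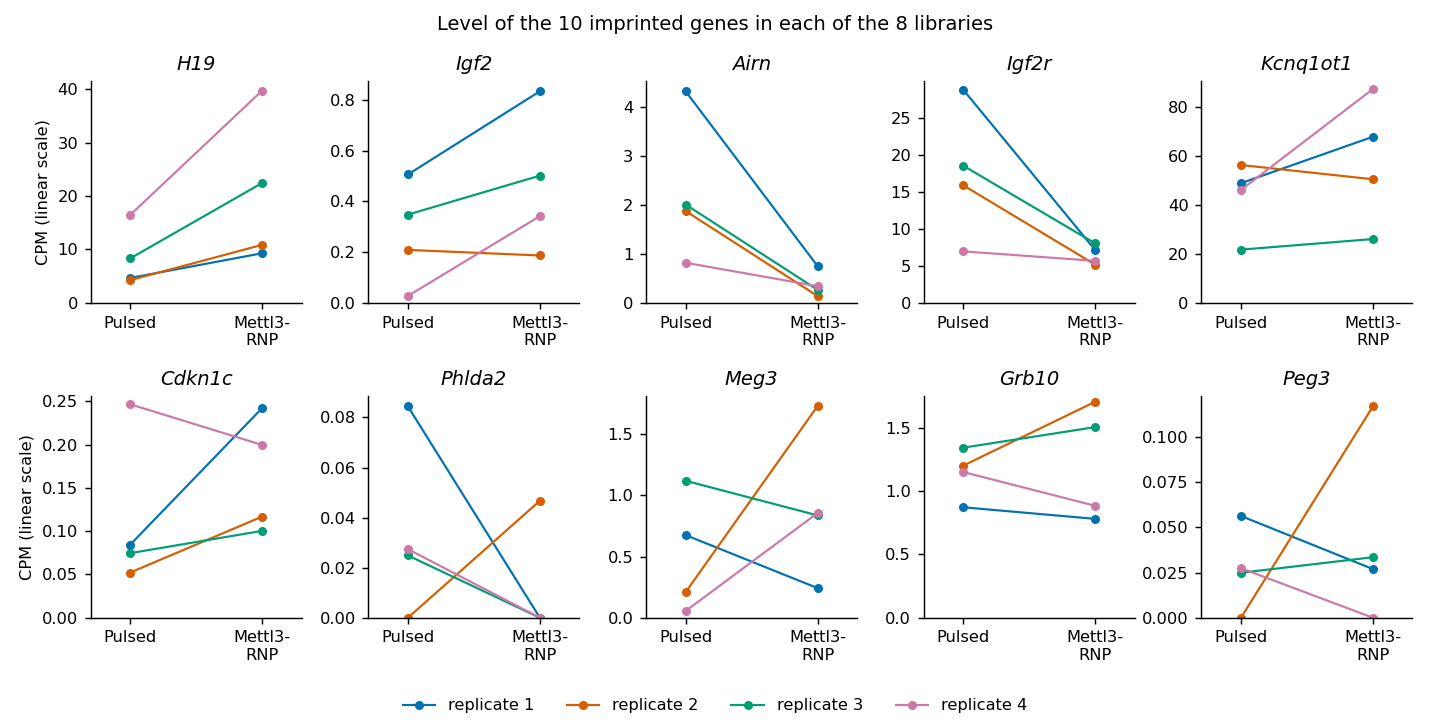
Level of each of the 10 imprinted genes (vertical axes, CPM, linear and starting at 0, with a scale of its own for each gene) in the 4 Pulsed and 4 Mettl3-RNP libraries. Points are libraries and lines join the libraries of one replicate number. All 4 lines of H19 climb, from at most 16.5 CPM to at most 39.7 CPM, and all 4 lines of Airn and Igf2r descend, those of Igf2r most steeply from 28.8 to 7.13 CPM in replicate 1.

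The H19 transcript is rich in the GGACT motif. The longest spliced form in GENCODE M39 has 2623 bases and 6 GGACT sites, 2.29 per kb. Among 14862 tested genes with a transcript, 91.9% had at least 1 such site in their longest form, and the median was 1.00 per kb (quartiles 0.620 and 1.42). The 6 sites are printed with 10 bases on each side, GGACT in capitals, to show where m6A could be sought. The search was on the transcribed strand alone, and a match is a run of letters, not a measured m6A site.
H19 site 1: gaatgttgaaGGACTgaggggctag
H19 site 2: tgcaggtatcGGACTccagagggat
H19 site 3: tgcggcccagGGACTggtgcggaaa
H19 site 4: ggcccacagtGGACTtggtacactg
H19 site 5: cgaagagctcGGACTggagactagg
H19 site 6: ttgaatccggGGACTtctttaagtc
They begin at bases 134, 928, 1012, 1038, 1306 and 1860 of the transcript, and in GRCm39 the printed stretches run from chr7:142131738-142131762 for site 1 to chr7:142130012-142130036 for site 6, on the minus strand. Sites 3 and 4 lie within the 84 bases of the Mir675 hairpin, transcript bases 1002 to 1085. Site 3 ends on the first base of miR-675-5p (transcript bases 1016 to 1037), and site 4 starts right after its last.

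The mature miRNAs cut from this hairpin are shown from RefSeq, because they are what an H19 transcript can be processed into, with the seed (bases 2 to 8) in capitals.
mmu-miR-675-5p: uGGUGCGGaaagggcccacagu
mmu-miR-675-3p: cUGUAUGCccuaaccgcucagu
In RefSeq's build GRCm38.p6 they lie at chr7:142577112-142577133 and chr7:142577078-142577099 on the minus strand. Of the 1738 mature miRNAs in the RefSeq table, 0 others carried either seed. Poly-A libraries do not measure mature miRNAs, so only the level of the host transcript is known here.

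Igf2, the fetal growth factor that shares enhancers with H19, was near the limit of detection. Its start site lies 86.7 kb from that of H19 (Igf2, chr7:142204503-142220694, minus strand). It had 31, 8, 15 and 12 counts in Mettl3-RNP 1 to 4 (0.834, 0.187, 0.502 and 0.342 CPM) and 18, 8, 14 and 1 counts in Pulsed 1 to 4 (0.506, 0.209, 0.348 and 0.0274 CPM). The groups overlapped, and pair 2 went slightly the other way (log2 differences 0.66, -0.13, 0.47 and 2.28 in pairs 1 to 4). The widest difference, that of pair 4, rested on a single count in Pulsed 4. The fitted log2 fold change was 0.89 with an SE of 0.619. Part of Igf2, 601 exon bases, is shared with exons of genes on the other strand.

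The Airn and Igf2r pair stood lower with Mettl3 targeted. Airn (ENSMUSG00000078247, chr17:12960198-13079299, plus strand) is the paternally expressed lncRNA that starts inside an intron of Igf2r and is transcribed against it. Igf2r (ENSMUSG00000023830, chr17:12901293-12988614, minus strand) encodes the receptor that carries IGF2 and mannose 6-phosphate tagged enzymes to lysosomes, and in most mouse tissues is expressed from the maternal copy. The start sites are 28.4 kb apart, and their annotated exons share no bases with annotated exons on the other strand. Bases shared with introns there were not counted, and whether counting used strand is not given.

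Airn had 28, 6, 8 and 12 counts in Mettl3-RNP 1 to 4 (0.754, 0.140, 0.268 and 0.342 CPM) and 154, 72, 81 and 30 counts in Pulsed 1 to 4 (4.33, 1.88, 2.01 and 0.822 CPM). The groups did not overlap, although the highest Mettl3-RNP library, replicate 1, came close to the lowest Pulsed library, replicate 4. The means were 0.376 ± 0.265 and 2.26 ± 1.48 CPM (SD, n = 4 per group). Log2 differences were -2.44, -3.32, -2.68 and -1.14 in pairs 1 to 4, and the fitted value of -2.57 (SE 0.430), or 5.95-fold lower, was the lowest of all 14942 genes fitted. Since the gene was listed for this value, its place in that order is part of the choice.

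Igf2r had 7.13, 5.16, 8.03 and 5.67 CPM in Mettl3-RNP 1 to 4 and 28.8, 15.9, 18.5 and 6.96 CPM in Pulsed 1 to 4. The Mettl3-RNP libraries sat close together (6.50 ± 1.32 CPM, SD, n = 4), whereas the Pulsed libraries were spread (17.5 ± 8.98 CPM, SD, n = 4), with Pulsed 4 inside the range of the Mettl3-RNP group. Log2 differences were -2.004, -1.61, -1.20 and -0.29 in pairs 1 to 4, and the fitted log2 fold change was -1.31 (SE 0.249), or 2.47-fold lower.

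Airn and Igf2r were ordered alike among the Pulsed libraries, both highest in Pulsed 1 and lowest in Pulsed 4. Per kb of annotated exon, Airn stood at 13.4%, 10.5%, 9.66% and 10.5% of Igf2r in Pulsed 1 to 4 and at 9.39%, 2.41%, 2.96% and 5.36% in Mettl3-RNP 1 to 4. The lncRNA was thus the lower share of its partner in each Mettl3-RNP library. The 2 ranges of this share did not overlap, though 9.39% in Mettl3-RNP 1, from 28 Airn counts, came close to 9.66% in Pulsed 3. Airn was listed for its lower level in these libraries, so this separation is part of the choice. The Airn model covers 10545 exon bases of a gene body of more than 100 kb, so reads from the unspliced transcript outside those exons were not counted.

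The macrophage marker list was lower in Mettl3-RNP in 4 of 4 pairs, as Airn and Igf2r were, with ranges that overlapped. It summed to 0.827 to 2.98 CPM in Mettl3-RNP and 2.25 to 3.49 CPM in Pulsed libraries. Of its 5 genes 1, Adgre1 (F4/80), could be fitted, and it was lower in Mettl3-RNP (0.888, 1.52, 1.47 and 0.827 CPM against 2.25, 2.45, 3.18 and 2.25 CPM; log2 fold change -1.13, adjusted p = 0.0435). Csf1r, C1qb and Mrc1 were also lower in pair 1, with 1, 2 and 8 counts in Mettl3-RNP 1 against 18, 12 and 13 in Pulsed 1, the library highest in Airn and Igf2r. They went the other way in pair 3, with 17, 16 and 12 counts in Mettl3-RNP 3 against 2, 1 and 2 in Pulsed 3, and Mrc1 had 11 counts in Mettl3-RNP 2 against 0 in Pulsed 2. The defining marker C1qa had at most 1 count in every library. The erythroid list was lower in Mettl3-RNP libraries too, at 2.196 to 3.58 CPM against 3.60 to 4.73 CPM, and its main gene Hba-a1 was the lower in 4 of 4 pairs (2.58, 1.59, 2.11 and 0.998 CPM against 2.62, 4.05, 4.55 and 2.52 CPM), while Hbb-bs had at most 1 count in any library. The part of such cells in the Airn and Igf2r values was not tested.

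No GGACT was found in the longest spliced Airn transcript of 1733 bases, which says only that these letters are not in that form. Igf2r had 12 sites in 8950 bases, or 1.34 per kb. Among the fitted genes the density was highest in H19, followed by Grb10 at 1.43 per kb and then Igf2r. Meg3 had 1.10 per kb, Kcnq1ot1 0.859 and Igf2 0.423, and Airn was last. The searched Airn form is far shorter than the 10545 exon bases over which Airn was counted.

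**Figure D2:**
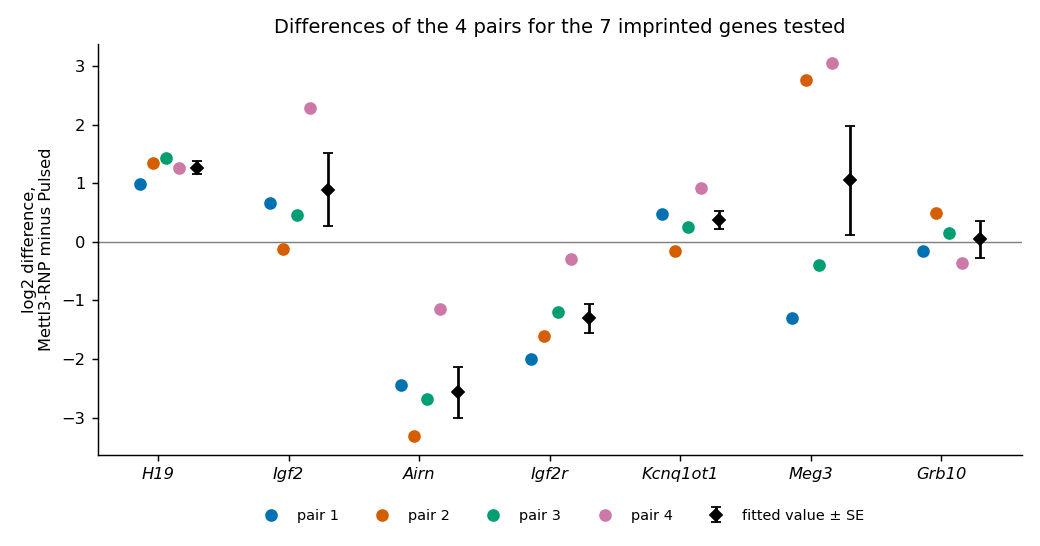
Log2 difference between Mettl3-RNP and Pulsed libraries (vertical axis) in each of the 4 pairs for the 7 imprinted genes fitted. Coloured points are pairs, and black diamonds with bars are fitted values ± SE. The pairs of H19 lie between 0.98 and 1.42, those of Airn between -3.32 and -1.14, and those of Meg3 are spread from -1.30 to 3.06.

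Kcnq1ot1, the lncRNA of the domain next to H19, was the member with the most counts. Kcnq1ot1 (ENSMUSG00000101609, chr7:142731402-142850327, minus strand) is a long, largely unspliced transcript that runs against Kcnq1. It had 67.8, 50.5, 26.1 and 87.3 CPM in Mettl3-RNP 1 to 4 and 48.8, 56.3, 21.7 and 46.1 CPM in Pulsed 1 to 4. Replicate 3 was lowest in both groups, the groups overlapped, and pair 2 differed in direction from the others (log2 differences 0.47, -0.16, 0.26 and 0.92). The fitted log2 fold change was 0.38 (SE 0.155). Its exons share 1832 bases with exons of Kcnq1 and other genes on the plus strand, where Kcnq1 itself had 0 to 19 counts. Its spliced model held 80 GGACT sites, 0.859 per kb, below the median density of the tested genes.

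Cdkn1c and Phlda2, protein-coding genes of the Kcnq1ot1 domain, were nearly absent. Cdkn1c, an inhibitor of cyclin-dependent kinases, had 9, 5, 3 and 7 counts in Mettl3-RNP 1 to 4 and 3, 2, 3 and 9 counts in Pulsed 1 to 4. Phlda2, a growth-restraining gene of the placenta, had 0, 2, 0 and 0 counts in Mettl3-RNP 1 to 4 and 3, 0, 1 and 1 counts in Pulsed 1 to 4. A count of 0 allows up to 3 counts, which is 0.0699 to 0.100 CPM in these libraries. Differences in these genes were not detectable at this depth.

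In the remaining domains no single direction was seen. Meg3, the maternally expressed lncRNA of the Dlk1-Dio3 domain (chr12:109506877-109538165, plus strand), had 9, 74, 25 and 30 counts in Mettl3-RNP 1 to 4 and 24, 8, 45 and 2 counts in Pulsed 1 to 4. The groups overlapped and the pairs split, with log2 differences of -1.30, 2.76, -0.40 and 3.06 around a fitted value of 1.05 (SE 0.936). Grb10, an adaptor that dampens insulin and growth factor receptor signalling (chr11:11880498-11988683, minus strand), had 0.781, 1.71, 1.51 and 0.884 CPM in Mettl3-RNP 1 to 4 and 0.872, 1.201, 1.34 and 1.15 CPM in Pulsed 1 to 4, a log2 fold change of 0.04 (SE 0.310). Peg3, a zinc finger gene expressed from the paternal copy, had 0 to 5 counts per library.

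Low-level transcripts of genes foreign to mast cells also varied between libraries. The 2007 olfactory and vomeronasal receptor genes together took 109, 308, 115 and 88.4 of each 1000000 counts in Mettl3-RNP 1 to 4 and 151, 97.9, 174 and 49.2 in Pulsed 1 to 4. This sum was highest in Mettl3-RNP 2 and lowest in Pulsed 4, the libraries in which Meg3 too was highest (1.73 CPM) and lowest (0.0548 CPM). In between the orders differed, Mettl3-RNP 4 having a low receptor sum of 88.4 and Meg3 at 0.855 CPM. The part of this low-level signal in the Meg3 values was not tested.

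Across these genes, 3 of the 7 fitted passed both limits used for all genes, an adjusted p no higher than 0.05 and a 1.5-fold difference, H19 higher and Airn and Igf2r lower. Over all 14942 genes, 2.06% met both criteria, 1.24% being higher and 0.816% lower in Mettl3-RNP. Without replicate 1, 2 or 3, H19 alone of these genes passed, and without pairing none of them did. Nothing is read from the count of 3, because the genes were listed with these values in view.

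Compared per kb of exon, the order of the genes differed between the groups mainly in the place of Airn. In Pulsed libraries the mean CPM per kb was 2.96 ± 1.99 for H19, 1.87 ± 0.958 for Igf2r, 0.461 ± 0.159 for Kcnq1ot1, 0.214 ± 0.140 for Airn and 0.111 ± 0.0192 for Grb10 (SD, n = 4). Among these neighbours in the order, Igf2r and Kcnq1ot1 were apart by more than their SDs, whereas the other neighbours overlapped. In Mettl3-RNP libraries H19, at 7.23 ± 4.93 CPM per kb, stood clear of Igf2r at 0.693 ± 0.141 and Kcnq1ot1 at 0.617 ± 0.277, which overlapped. Airn, the fourth in order in Pulsed, followed Grb10 (0.119 ± 0.0445), Cdkn1c (0.0764 ± 0.0313), Igf2 (0.0757 ± 0.0450) and Meg3 (0.0474 ± 0.0317) in Mettl3-RNP, at 0.0356 ± 0.0252 CPM per kb (SD, n = 4).

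Genes of the same domains were examined next, from a list of 36 neighbours, of which 35 were in the tables and 12 were expressed enough to be tested. Of these 12, 3 passed (against 2.06% of all genes), all higher in Mettl3-RNP: Tspan32, Cd81 and Tssc4. The median log2 fold change of the 12 was 0.45, against -0.0013 over all genes, with 9 fitted above 0 and 3 below. Tspan32 was already known as a changed gene of these libraries when the list was drawn up, so the count is not independent of these data.

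Tspan32, a tetraspanin of blood cells (chr7:142558783-142573381, plus strand), had 26.6, 71.2, 32.2 and 69.7 CPM in Mettl3-RNP 1 to 4 and 4.59, 14.2, 11.3 and 9.53 CPM in Pulsed 1 to 4. The groups did not overlap (log2 fold change 2.31, SE 0.202, adjusted p = 0.00543). Cd81, another tetraspanin and part of the B cell co-receptor (chr7:142606314-142621672, plus strand), had 11.7, 45.5, 38.6 and 31.8 CPM in Mettl3-RNP 1 to 4 and 6.13, 11.5, 24.6 and 9.23 CPM in Pulsed 1 to 4. It was higher in 4 of 4 pairs, with overlapping groups (log2 fold change 1.34, SE 0.222, adjusted p = 0.0258), and without replicate 2 it no longer passed (adjusted p = 0.0966). Tssc4 (chr7:142622865-142624830, plus strand), which encodes a factor of snRNP assembly, had 18.9, 29.1, 29.1 and 34.3 CPM in Mettl3-RNP 1 to 4 and 11.7, 15.2, 10.5 and 13.6 CPM in Pulsed 1 to 4. These groups did not overlap (log2 fold change 1.11, SE 0.137, adjusted p = 0.0139), and without replicate 2 the adjusted p was 0.0618.

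These 3 genes lie next to each other between H19 and Kcnq1ot1. The start site of Tspan32 is 425 kb from that of H19, Cd81 starts 47.5 kb beyond Tspan32, Tssc4 a further 16.6 kb on, and Kcnq1ot1 another 227 kb away. Exons on the other strand share 271 exon bases of Tspan32 (Tspan32os), 310 of Cd81 (the lncRNA R74862) and 385 of Tssc4 (R74862 and Trpm5). R74862 had a mean of 0.733 CPM in Mettl3-RNP and 0.222 CPM in Pulsed libraries, far under Cd81 (31.9 and 12.8 CPM).

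The other 9 neighbours did not pass. Osbpl5, an oxysterol-binding protein gene of the Kcnq1 domain, had the smallest adjusted p among them and differed by less than 1.5-fold (log2 fold change 0.51, adjusted p = 0.0574, higher in 4 of 4 pairs). On the same domain's edge, Cars1 had -0.29 (adjusted p = 0.105) and Nap1l4 -0.02 (adjusted p = 0.918), and Mrpl23, 47.5 kb from H19, had -0.18 (adjusted p = 0.285). Near Grb10, Ddc had 0.51 (adjusted p = 0.216), Cobl 0.27 (adjusted p = 0.112) and Fignl1 0.39 (adjusted p = 0.326). Rian of the Meg3 domain had 1.16 (adjusted p = 0.519) and Usp29 of the Peg3 domain 0.12 (adjusted p = 0.945), both highest in Mettl3-RNP 2 and lowest in Pulsed 4, as the receptor genes were.

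Of the listed neighbours, 23 were too low to be tested. Slc22a3 had 1 to 51 counts and Slc22a2 none in any library, and Slc22a18 had 1, 20, 9 and 18 counts in Mettl3-RNP 1 to 4 against 0, 2, 1 and 5 in Pulsed 1 to 4, higher in 4 of 4 pairs and not tested. Plg and Mas1, around Airn, had at most 1 count. Dlk1 had 0 to 26 counts, and Ins2, Th, Rtl1 and Dio3 were at 0 in all 8 libraries.

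All tested genes within 1000 kb of each start site were then counted, a window chosen after these values had been seen. Around H19, leaving out the genes of the rule, 4 of 16 tested genes passed, all 4 higher in Mettl3-RNP, against 1.24% of all genes: Tspan32, Cd81, Tssc4 and Ctsd. DESeq2 called 5 of the 16. The window was drawn with these values in view, so nothing is read from the count. Ctsd, the lysosomal protease cathepsin D, starts 192 kb from H19 and rose from 1091 ± 52.2 to 1761 ± 379 CPM (SD, n = 4 per group; log2 fold change 0.66, SE 0.123, adjusted p = 0.0326). Without replicate 2 or 3 the adjusted p of Ctsd was 0.139 and 0.0763.

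Around Airn, 13 genes were tested, Airn and Igf2r among them. Of the other 11, 0 passed by edgeR and 0 by DESeq2, with 3 at an unadjusted p under 0.05, a limit that 22.5% of all tested genes met. One of those 3, Wtap, which encodes a partner of Mettl3 in the methyltransferase complex and starts 253 kb from Airn, had an adjusted p of 0.0161 with a log2 fold change of 0.50, below the 1.5-fold limit. In the windows around Meg3 (13 tested genes), Grb10 (9 genes) and Peg3 (16 genes) 0 passed by edgeR. Leaving out Meg3 and Grb10 themselves, 1 of 12, 3 of 8 and 1 of 16 genes there had an unadjusted p under 0.05, against 22.5% of all tested genes, and DESeq2 called 0.

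**Figure D3:**
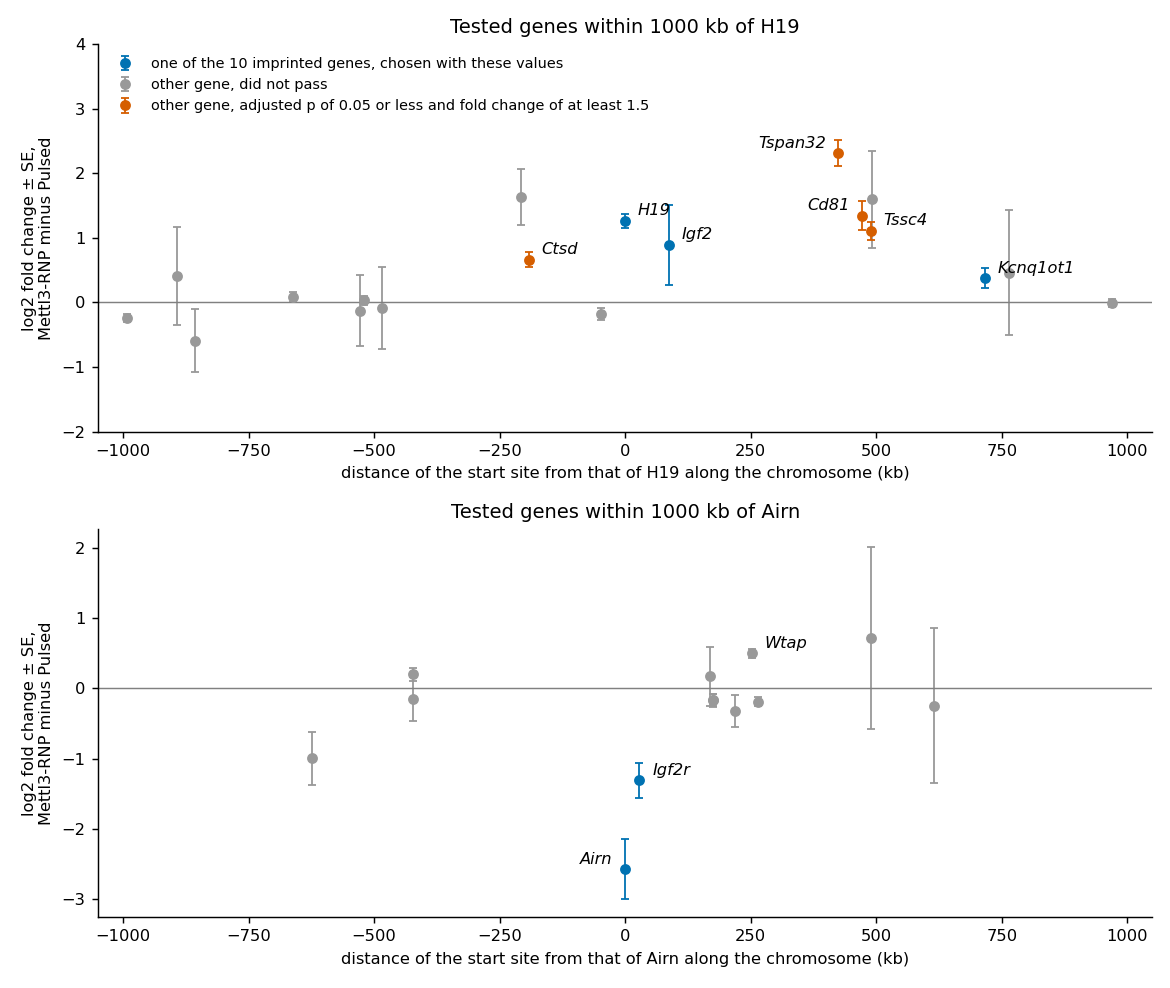
Fitted log2 fold change ± SE (vertical axes) of tested genes against the distance of their start site from that of H19 (upper panel, 19 genes) or Airn (lower panel, 13 genes), in kb. Blue points are genes of the rule, orange points other genes that passed, grey points those that did not. Near H19 the orange points Ctsd, Tspan32, Cd81 and Tssc4 are all above 0, and near Airn only the blue points Airn and Igf2r lie below -1.

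Imprinted genes not on the neighbour list, most of them elsewhere in the genome, were compared with these. Dhcr7 (chr7:143376740-143402149) on this list lies close to Osbpl5 of the Kcnq1 domain. Of 52 listed, 49 were in the tables and 28 were tested. By edgeR 0 of the 28 passed, against 2.06% of all tested genes, and DESeq2 called 0 as well. An unadjusted p under 0.05 was found for 2 of the 28, against 22.5% of all tested genes. Their median log2 fold change was 0.12. The 3 smallest p-values were those of Ampd3, an AMP deaminase (0.43, SE 0.0962, adjusted p = 0.0522), Gnas, the stimulatory G protein subunit (-0.21, adjusted p = 0.121) and Zfp64 (0.17, adjusted p = 0.233).

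Genes that set or keep imprints were the last list. Of 25 genes, 22 were tested and 1 passed, a share near the 2.06% of all genes. It was Setdb1, the histone H3 lysine methyltransferase recruited by KRAB zinc finger proteins. Setdb1 had 91.7, 76.8, 48.7 and 104 CPM in Mettl3-RNP 1 to 4 and 56.0, 53.4, 34.1 and 57.8 CPM in Pulsed 1 to 4. It rose in 4 of 4 pairs (log2 fold change 0.65, SE 0.0798, adjusted p = 0.0139), with replicate 3 lowest in both groups, and without replicate 2 the adjusted p was 0.0588. The Setdb1 exons share 2581 bases with exons of Cers2 and other genes on the other strand.

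The maintenance methyltransferase Dnmt1 (0.03, adjusted p = 0.885), its recruiter Uhrf1 (0.05, adjusted p = 0.855), the imprint reader Zfp57 (0.04, adjusted p = 0.971), its corepressor Trim28 (-0.23, adjusted p = 0.245) and the insulator protein Ctcf (0.11, adjusted p = 0.408) did not pass. Cbx5 (-0.31, adjusted p = 0.0589) and Ezh2 (-0.31, adjusted p = 0.0683) had the next smallest p-values and differed by less than 1.5-fold. The median log2 fold change of the 22 was 0.0083, close to that of all genes.

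**Figure D4:**
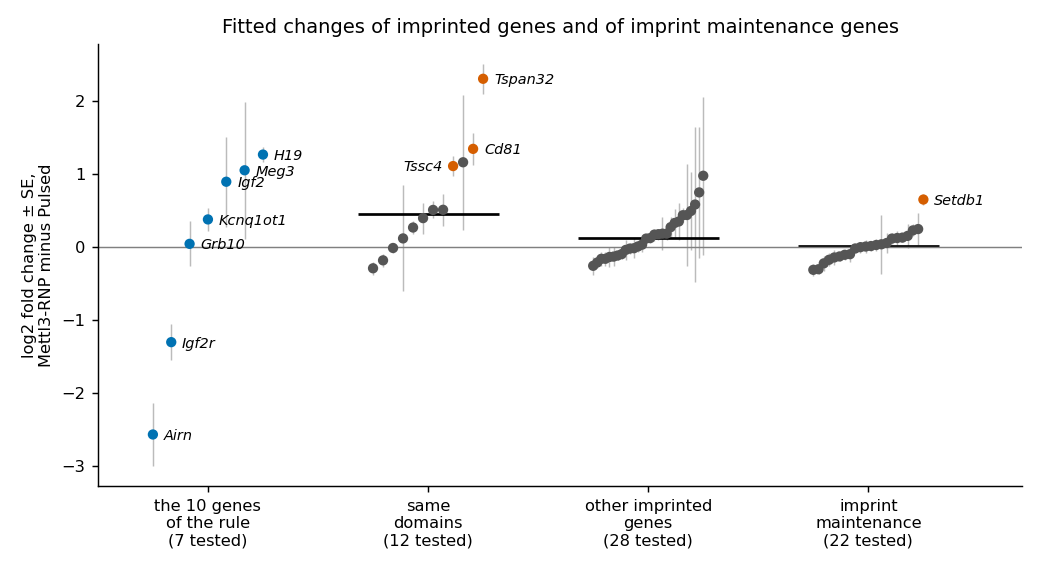
Fitted log2 fold change ± SE (vertical axis) of the 7 genes of the rule, 12 genes of the same domains, 28 other imprinted genes and 22 imprint maintenance genes. Points are genes sorted by value, horizontal lines list medians (0.45, 0.12 and 0.0083, none drawn for the rule's genes), blue marks the rule's genes and orange the other genes that passed. Most other imprinted and maintenance genes lie close to 0.

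The genes most like H19 and Airn over the 8 libraries were listed by Pearson correlation of log2 CPM among 11943 genes. The 8 points of each gene share libraries, depth and the 2 groups, so these values are descriptions. For H19 they were Rtel1 (r = 0.976), Chaf1b (0.957), Mycbpap (0.942), Sh3rf1 (0.941) and Avpi1 (0.940), of which none passed the test between groups. For Airn they were Rnf130 (r = 0.982), Vps33b (0.958), Pilra (0.953), Gm47694 (0.9504) and Gas7 (0.947), of which Pilra passed (log2 fold change -1.16). Igf2r had r = 0.920 with Airn, placing it at rank 18, and r = -0.74 with H19.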

How the data were processed

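The authors sequenced paired-end libraries of poly-A RNA (Tecan Revelo kit) and deposited 1 table of raw counts per gene for each of the 8 samples. The submitters' processing notes name FastQC 0.11.9, HISAT2 2.2.1, featureCounts 2.0.1 and the build GRCm39. Strand and multimapping settings are not given in the sources used here, and the study's methods state a batch correction with removeBatchEffect; the deposited values are whole numbers, and whether any correction preceded them is not given. The 10 genes, the other gene lists and the tests were chosen with earlier results of these data known.

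Gene names came from GENCODE M39 (56017 of 56748 identifiers, 98.7%); identifiers without a name held at most 0.113% of a library's counts, and Peg3os, Nespas, Zrsr1 and Gpr1 were not analysed here. Counts were filtered with filterByExpr, scaled by TMM (factors 0.889 to 1.05) and fitted with edgeR 4.0.16 in R 4.3.3 by the quasi-likelihood test with group and replicate number as terms. P-values were adjusted by the Benjamini-Hochberg method over all 14942 genes. A gene passed when its adjusted p was no higher than 0.05 and it differed 1.5-fold or more. The script was tested on simulated data. A prior count of 2 was added for log2 CPM per library.

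Same-numbered libraries deviated together from their group means (r = 0.825, 0.489, 0.879 and 0.765 over 11985 genes, against at most 0.183 for different numbers), and the series text names 4 mice. The study's methods call the 4 replicates independent biological ones, while the labels do not say whether each was a separate culture. Floors cover counting error only.

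Named genes were the 10 listed, Mettl3, every tested domain neighbour, list genes that passed or, with fewer than 3, those with the 3 smallest p-values, Dnmt1, Uhrf1, Zfp57, Trim28 and Ctcf, and the 5 genes most like H19 and Airn with a mean of at least 1 CPM. Ctsd, Wtap, Cbx5, Ezh2 and the window of 1000 kb were chosen after values were seen, and the test between replicate numbers was added then. Alternatives were DESeq2 1.42.0, other scalings and filters, no replicate block, and leaving out each replicate.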

Additional observations from a re-analysis of the deposited data

Results flagged for a closer look

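In 4 of 68 groups of 4 libraries, taken over 34 named genes, 1 library stood far from the other three of its group, about the 3.4 that chance gives at 1 in 20 groups. Cdkn1c was at 0.246 CPM in Pulsed 4 (9 counts), where the other Pulsed libraries had 0.0522 to 0.0844 CPM. Phlda2 was at 0.0467 CPM in Mettl3-RNP 2 (2 counts) and at 0 in the rest of that group. Mettl3 was at 11.2 CPM in Pulsed 3, where the other Pulsed libraries had 24.5 to 26.5 CPM; Mettl3-RNP 3, at 4.88 CPM, was likewise the lowest of its group. Usp29 was at 3.78 CPM in Mettl3-RNP 2, where the rest of the group had 0.511 to 0.803 CPM.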

How the results depend on the processing

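Over the results and alternatives run, no value that had passed changed sign. Without the replicate block, that is without pairing, 0 of 14942 genes passed by edgeR (579 had an unadjusted p under 0.05), hence 0 domain neighbours and 0 maintenance genes, and Mettl3 had a log2 fold change of -1.31 (adjusted p = 0.744). Tspan32, Cd81, Tssc4, Ctsd and Setdb1 then lost their calls too. Beside the 308 genes that passed, 579 did among genes with at least 1 count and 505 by DESeq2. Leaving out each replicate gave 26 to 331 genes, the 26 without replicate 2, 1 to 3 domain neighbours (Tspan32 alone without replicate 2) and 0 to 1 maintenance genes. Of the genes of the rule, 4 of 10 differed between replicate numbers with at least 1 count (22.8% of all tested genes did), and 1 to 4 of 7 when a replicate was left out, from 1 without replicate 3 (27.2%) to 4 without replicate 4 (44.5%). The log2 fold change of H19 stayed between 1.21 and 1.31 when a replicate was left out, that of Airn between -2.96 and -2.26 and that of Igf2r between -1.60 and -1.09. Single replicates weighed more in Meg3 (0.26 without replicate 2, 1.94 without replicate 1), Igf2 (0.41 without replicate 4), Kcnq1ot1 (0.20 without replicate 4, 0.55 without replicate 2) and Grb10 (-0.13 without replicate 2, 0.19 without replicate 4). Airn could not be fitted under a minimum of 10 counts in every library. Cdkn1c, Phlda2 and Peg3, with at most 9 counts in a library, are limited by counting error.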

Other observations

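Several of the named genes were lowest in replicate 3 of both groups. Mettl3 had 4.88 CPM in Mettl3-RNP 3 and 11.2 CPM in Pulsed 3, Kcnq1ot1 26.1 and 21.7 CPM, Setdb1 48.7 and 34.1 CPM, Osbpl5 63.6 and 33.7 CPM, and Ampd3 10.6 and 7.41 CPM. H19, in contrast, was lowest in replicates 1 and 2 of both groups.

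Ifitm10, an interferon-induced transmembrane protein gene beside Ctsd, chosen after its values were seen, had 0.646, 2.27, 1.07 and 1.08 CPM in Mettl3-RNP 1 to 4 and 0.281, 0.313, 0.497 and 0.411 CPM in Pulsed 1 to 4. The groups did not overlap, and it did not pass (log2 fold change 1.63, adjusted p = 0.0797).

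Of the 49 other imprinted genes in the tables, 21 were too low to be tested. Snurf, Magel2 and Dcn were at 0 in all 8 libraries, and Mest, Nnat and Mkrn3 had at most 4 counts in any of them. Snrpn, Klf14, Asb4 and Slc38a4 were highest in Mettl3-RNP 2, with 21, 32, 27 and 38 counts, the library in which the olfactory and vomeronasal receptor genes were highest too.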
